A study of Homo sapiens with 4 samples.

Results

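The human alkaline phosphatase genes are ALPI (intestinal), ALPP (placental), ALPG (germ cell) and ALPL (tissue-nonspecific). They were the rows of the deposited count table with these 4 gene names, 4 of 27452 genes. The set was picked from an earlier reading of these same data in which ALPI stood among the largest falls with STAT3 shRNA, so the differences of the 4 genes between the groups are given as a description, with no test. RNA sequencing was done on cells labelled HepG2, an established human hepatoma line, in 2 groups of 2 libraries: cells with a hairpin RNA that targets STAT3 (STAT3 shRNA) and cells with a control hairpin (Ctrl shRNA). The labels give no time, hairpin sequence or number of clones, and do not tell whether the paired libraries are separate cultures, so spreads between libraries may be technical.

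Alkaline phosphatases are zinc enzymes that remove phosphate groups from many substrates at alkaline pH and are held on the outer face of the cell membrane by a glycosylphosphatidylinositol (GPI) anchor. ALPI is made by enterocytes and dephosphorylates bacterial lipopolysaccharide and luminal nucleotides. ALPP is made by the placental syncytiotrophoblast, and ALPG by germ cells and at low levels elsewhere. ALPP and ALPG also appear outside these tissues in tumours and tumour cell lines. ALPL, of liver, bone and kidney, hydrolyses pyrophosphate and pyridoxal phosphate and is needed for bone mineralization.

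In GENCODE 29 (GRCh38; the build used by the authors is not given in the sources used here), ALPP, ALPG and ALPI lie in this order on the plus strand of chromosome 2. ALPP (ENSG00000163283.7 in the table) spans chr2:232378534-232382889, ALPG (ENSG00000163286.9) chr2:232406843-232410714 and ALPI (ENSG00000163295.5) chr2:232456123-232460032, all within 81.5 kb. Each has 11 exons. ALPL (ENSG00000162551.14) lies alone on chromosome 1, at chr1:21509372-21578412 on the plus strand, and its longest transcript has 12 exons.

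The 3 genes on chromosome 2 share sequence, which bears on how reads can be told apart. Aligned coding sequences of ALPP and ALPG were identical at 97.8% of 1596 bases. Those of ALPI were identical to ALPP at 89.7% and to ALPG at 89.5% of 1584 bases, and those of ALPL to ALPP at 67.2% of 1542 bases. Of 100-base windows of the ALPG coding sequence, 25.3% occurred without a mismatch in ALPP, whereas none of the 1485 such windows of ALPI occurred in ALPP or ALPG. With 75-base windows the shares were 32.8% of ALPG in ALPP and 0.066% of ALPI in ALPP, and with 50-base windows 45.5% and 2.48%. If 2 mismatches are allowed in 100 bases, 67.5% of ALPG windows and 0.213% of ALPI windows matched ALPP. These shares are of coding sequence. Over whole transcripts, untranslated parts included, fewer ALPG windows occurred in ALPP without a mismatch, 29.3% of 50 bases, 20.6% of 75 and 15.8% of 100. ALPL shared no 50-base window with the others, and no 50-base window of the coding sequences of the 4 genes occurred in transcripts of other genes. The untranslated parts of the 4 genes were not searched against other genes. The search used the sense strand only, so that antisense transcripts could not match. Read length is not given in the sources used here, nor is the aligner or its handling of reads with several matches.

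Coding stretches of 90 bases in which ALPP and ALPG are identical show this directly, with capitals at bases of ALPI that differ from ALPP. The first set is the one where ALPI is most like the others, with 2 differences (coding bases 345 to 434 of ALPP, 336 to 425 of ALPG and of ALPI).
ALPP: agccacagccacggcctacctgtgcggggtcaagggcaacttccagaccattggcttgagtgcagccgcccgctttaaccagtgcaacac
ALPG: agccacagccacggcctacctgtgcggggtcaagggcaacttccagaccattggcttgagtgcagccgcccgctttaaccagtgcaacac
ALPI: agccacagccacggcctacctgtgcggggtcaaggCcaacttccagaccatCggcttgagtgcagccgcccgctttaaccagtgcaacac
The second set is the one where ALPI is least like them, with 25 differences (coding bases 1201 to 1290 of ALPP, 1192 to 1281 of ALPG and of ALPI).
ALPP: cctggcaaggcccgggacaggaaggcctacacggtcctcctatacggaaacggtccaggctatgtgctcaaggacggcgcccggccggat
ALPG: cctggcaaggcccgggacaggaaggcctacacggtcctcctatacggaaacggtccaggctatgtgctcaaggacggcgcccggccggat
ALPI: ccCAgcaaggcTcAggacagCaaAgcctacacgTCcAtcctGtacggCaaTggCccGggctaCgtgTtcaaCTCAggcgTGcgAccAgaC
A read from the first set could not be assigned to ALPP or ALPG by its sequence, while a read from the second set could be assigned to ALPI.

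**Figure D1:**
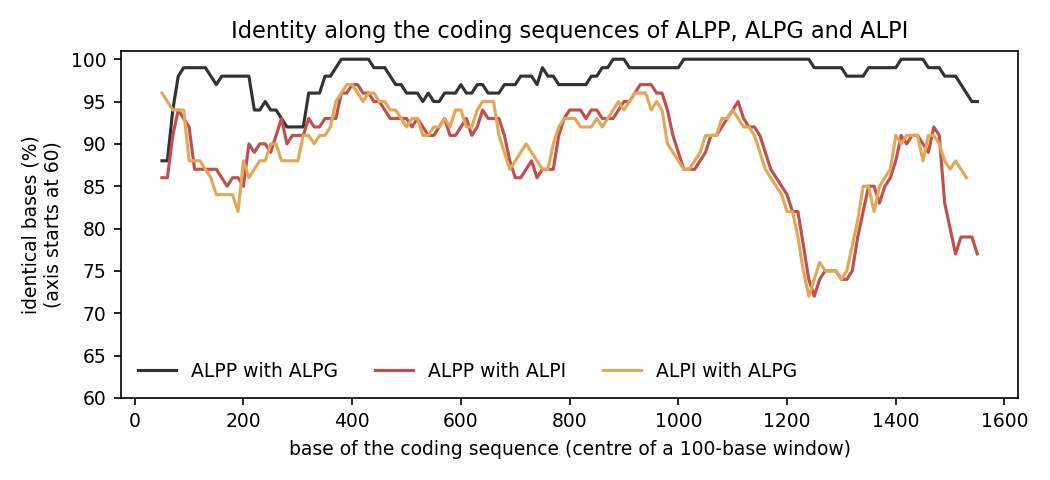
Share of identical bases (%, axis from 60) in 100-base windows along the coding sequence, by the centre of the window, for the 3 pairs of genes on chromosome 2. ALPP and ALPG stay between 88% and 100%, while either gene against ALPI goes down to 72%, around base 1250.

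Promoter windows of the same 3 genes, 250 bases before to 50 bases after the start that RefSeq annotates, which is not the GENCODE start given above, are shown because the 3 genes lie side by side and were all lower with STAT3 shRNA. They are RefSeq sequences of GRCh38.p14, plus strand, at chr2:232455903-232456202 for ALPI, chr2:232406594-232406893 for ALPG and chr2:232378501-232378800 for ALPP. Capitals mark runs of at least 12 bases found in all 3.
ALPI: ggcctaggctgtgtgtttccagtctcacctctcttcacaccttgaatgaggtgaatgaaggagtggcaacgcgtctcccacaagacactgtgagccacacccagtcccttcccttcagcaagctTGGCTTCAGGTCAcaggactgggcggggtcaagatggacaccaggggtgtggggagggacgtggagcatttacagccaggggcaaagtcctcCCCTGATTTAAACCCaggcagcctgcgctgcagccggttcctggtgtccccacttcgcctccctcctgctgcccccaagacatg
ALPG: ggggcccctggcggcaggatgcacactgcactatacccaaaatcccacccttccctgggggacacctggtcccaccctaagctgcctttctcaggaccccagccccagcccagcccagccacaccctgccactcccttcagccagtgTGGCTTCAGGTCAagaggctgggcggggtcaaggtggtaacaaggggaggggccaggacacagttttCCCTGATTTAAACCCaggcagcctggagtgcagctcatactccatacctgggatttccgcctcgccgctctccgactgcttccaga
ALPP: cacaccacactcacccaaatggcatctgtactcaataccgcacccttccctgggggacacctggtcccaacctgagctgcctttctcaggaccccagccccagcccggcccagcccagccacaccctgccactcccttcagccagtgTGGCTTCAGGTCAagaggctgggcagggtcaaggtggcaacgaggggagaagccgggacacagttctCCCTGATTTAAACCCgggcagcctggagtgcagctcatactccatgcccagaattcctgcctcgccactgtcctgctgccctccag
The windows of ALPG and ALPP were identical at 86.7% of 293 aligned bases, that of ALPI and ALPG at 71.6% of 268 and that of ALPI and ALPP at 71.8% of 266. The 2 runs common to all 3 are 15 and 13 bases long and begin 34 and 126 bases before the RefSeq start of ALPI. The palindromic forms of the STAT motif, TTCNNNGAA and the same with 1 more base in its gap, each its own reverse complement so that 1 search covers both strands, had 0 matches in these windows and in the 3 windows of ALPL. They occur in 7.66% and 6.44% of all 35116 promoter windows, so that the lack of a match in these few is common and says nothing of STAT3 binding.

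Total counts were 25862027 and 17694642 in the STAT3 shRNA libraries and 19283150 and 20133064 in the Ctrl shRNA libraries. Levels are given as CPM, the usual depth-scaled read count, with library sizes adjusted by TMM factors. STAT3 itself, the check of the labels, had 34.7 and 36.1 CPM with STAT3 shRNA against 245.03 and 244.3 CPM in Ctrl shRNA. Within a group, the spread of counts exceeded that of sampling alone (chi-square over its degrees of freedom 4.20 for the STAT3 shRNA pair and 13.9 for the Ctrl shRNA pair). The labelled cell type was not borne out by the markers that could be read. Of 16 hepatocyte markers 8 could be read here, and albumin (ALB), which hepatocytes and hepatoma lines make in abundance, had 0 and 3 reads with STAT3 shRNA and 0 in both Ctrl shRNA libraries. The other defining genes APOA1, APOA2 and FGG had 0 to 2 reads in every library. RBP4 had 36 and 18 reads with STAT3 shRNA against 22 and 17 in Ctrl shRNA, and AHSG 11 and 5 against 0 in both. The summed level of the 8 markers was 15.5 and 15.7 CPM with STAT3 shRNA against 18.8 and 16.5 CPM in Ctrl shRNA, most of it VTN (vitronectin). The libraries are therefore called by their hairpins and not by a cell type.

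ALPI was abundant in the Ctrl shRNA libraries and nearly gone in the others. It had 214 and 118 reads with STAT3 shRNA (8.03 and 6.41 CPM) against 19703 and 26947 reads in Ctrl shRNA (1045 and 1409 CPM). The groups lay far apart, with the lower Ctrl shRNA library 130.1 times above the higher STAT3 shRNA library. Means were 7.22 ± 1.14 and 1227 ± 257.5 CPM (SD, n = 2 each), a log2 fold change of -7.39 ± 0.19 (SE of the edgeR fit, 95% interval -7.82 to -6.96). By read number ALPI stood at places 10254 and 10680 of 27452 genes with STAT3 shRNA and at places 86 and 62 in Ctrl shRNA. By log2 fold change it was the 26th lowest of 15199 genes tested. In bulk RNA, fewer cells that make a transcript and less transcript per cell cannot be told apart, which holds for every difference below.

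In ALPI the 2 Ctrl shRNA libraries lay 0.43 apart on the log2 scale, replicate 2 being 1.35 times as high as replicate 1. Among 2189 genes with at least 100 CPM in both Ctrl shRNA libraries, 2.42% differed by more. That difference is small beside the one between the groups, and the log2 fold change of ALPI ran from -7.62 to -7.16 with 1 library left out.

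ALPP was the most abundant of the 4 genes and one of the most abundant transcripts in every library. It had 3565 and 3498 CPM with STAT3 shRNA against 5061 and 5138 CPM in Ctrl shRNA, the 9th most read gene in both STAT3 shRNA libraries and the 6th in both Ctrl shRNA libraries. Libraries of a group were close together and the groups did not overlap. Means were 3531 ± 47.5 and 5100 ± 54.3 CPM (SD, n = 2 each), a log2 fold change of -0.53 ± 0.07 (SE, 95% interval -0.69 to -0.37). ALPP was thus 1.44-fold lower where ALPI was 169.9-fold lower.

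The size of the ALPP difference moved with GC content. Its longest transcript has 61.6% GC, and the 1458 tested genes within 2 percentage points of that had a median log2 fold change of -0.27, against 0.02 over all tested genes. Of those 1458 genes 26.5% had a lower log2 fold change than ALPP, and an offset for GC content, added after the data were seen, brought ALPP to -0.28. For ALPI, at 62.2% GC, the offset gave -7.12. ALPI was picked as one of the largest falls, so nothing is read from 0 of 1366 genes of like GC content having a lower value. Across genes, GC content went with the difference between the Ctrl shRNA libraries as well (Spearman rho 0.460 over 14545 genes, which are not independent replicates). The part of GC content in these values was not tested further.

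ALPG was low and was lower still with STAT3 shRNA. It had 256 and 156 reads (9.60 and 8.48 CPM) against 553 and 650 reads in Ctrl shRNA (29.3 and 34.0 CPM), groups that did not overlap. Means were 9.04 ± 0.796 and 31.7 ± 3.30 CPM (SD, n = 2 each), a log2 fold change of -1.80 ± 0.13 (SE, 95% interval -2.10 to -1.50). As a background for the 3 genes, 34.3% of all tested genes did not overlap between the groups and were lower with STAT3 shRNA, and 36.5% did not overlap and were higher. Since the genes were picked on this contrast, nothing is read from their being among them.

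ALPL was at the limit of detection. It had 4 and 6 reads with STAT3 shRNA against 0 and 1 reads in Ctrl shRNA, where 3 reads correspond to 0.113 to 0.163 CPM in a single library. Pooled over each group the 10 and 1 reads gave 0.222 and 0.0263 CPM, a ratio of 8.43 with an exact 95% counting interval of 1.20 to 365.9, which covers counting error only. ALPL did not pass the filter on low counts, so that 3 of the 4 genes were in the fit.

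**Figure D2:**
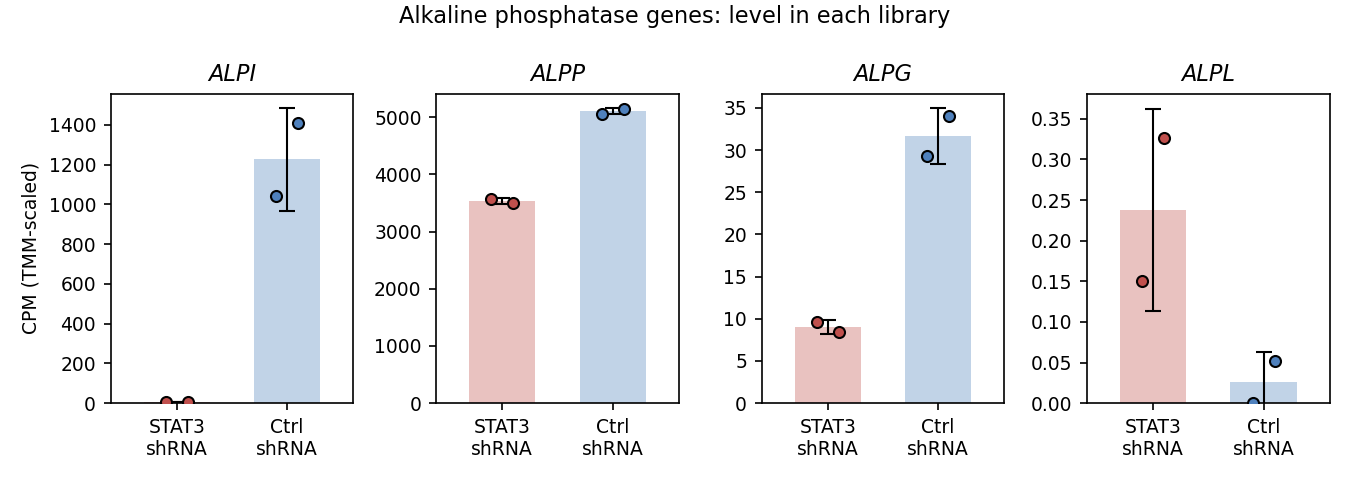
CPM (TMM-scaled) of the 4 genes in each library, with points for libraries, bars for the group mean and whiskers for the SD (n = 2, the lower whisker of ALPL in Ctrl shRNA ends at the axis). ALPI, ALPP and ALPG have no overlap between the groups and are lower with STAT3 shRNA, by very different amounts, and ALPL is below 0.4 CPM in every library. Each panel has its own axis.

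Levels of different genes can be compared only per length, for which the deposited FPKM were used. ALPP had 1691 and 1758 FPKM with STAT3 shRNA against 2459 and 2484 FPKM in Ctrl shRNA. By FPKM it stood at places 71 and 70 with STAT3 shRNA and at places 51 and 70 in Ctrl shRNA, lower than by read number. ALPI had 3.60 and 2.65 FPKM with STAT3 shRNA against 412.7 and 540.8 FPKM in Ctrl shRNA. Its places by FPKM were 10760 and 11573 with STAT3 shRNA and 263 and 242 in Ctrl shRNA. ALPG had 4.04 and 3.48 FPKM with STAT3 shRNA against 11.96 and 14.2 FPKM in Ctrl shRNA, and ALPL 0.080 and 0.18 FPKM with STAT3 shRNA against 0 and 0.030 FPKM in Ctrl shRNA. In Ctrl shRNA the order was therefore ALPP, ALPI, ALPG and ALPL, with no overlap between neighbours. With STAT3 shRNA ALPP stayed first and ALPL last, while ALPG (3.76 ± 0.396 FPKM) and ALPI (3.13 ± 0.672 FPKM; SD, n = 2 each) overlapped, the higher ALPI library lying above the lower ALPG library, although ALPG was the higher of the pair within each library. ALPP exceeded ALPI by 469.8 and 663.4 times with STAT3 shRNA and by 5.96 and 4.59 times in Ctrl shRNA. The FPKM gave a fold of 152.6 for ALPI, 1.43 for ALPP and 3.48 for ALPG between the group means, close to the folds of 169.9, 1.44 and 3.50 from CPM.

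Ratios of reads within a library do not depend on depth or scaling, and they are given because ALPP shares sequence with its relatives. For every 100 ALPP reads there were 0.225 and 0.183 ALPI reads with STAT3 shRNA (exact 95% counting intervals 0.196 to 0.258 and 0.152 to 0.220), against 20.6 and 27.4 in Ctrl shRNA (20.3 to 20.96 and 27.1 to 27.8). The part of ALPP reads counted for ALPI was not tested. ALPG had 0.269 and 0.242 reads per 100 ALPP reads with STAT3 shRNA against 0.579 and 0.661 in Ctrl shRNA. Per 100 reads of ALPP and ALPI together, ALPG had 0.269 and 0.242 with STAT3 shRNA against 0.480 and 0.519 in Ctrl shRNA. Given that ALPG shares long identical runs with ALPP, own transcripts of ALPG and reads of its relatives counted for it cannot be told apart at these levels, and the ALPG values are uncertain to that extent. An antisense gene annotated inside ALPP (AC068134.1) had 1 and 2 reads with STAT3 shRNA and 8 and 2 in Ctrl shRNA, beside at least 64352 ALPP reads in every library.

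**Figure D3:**
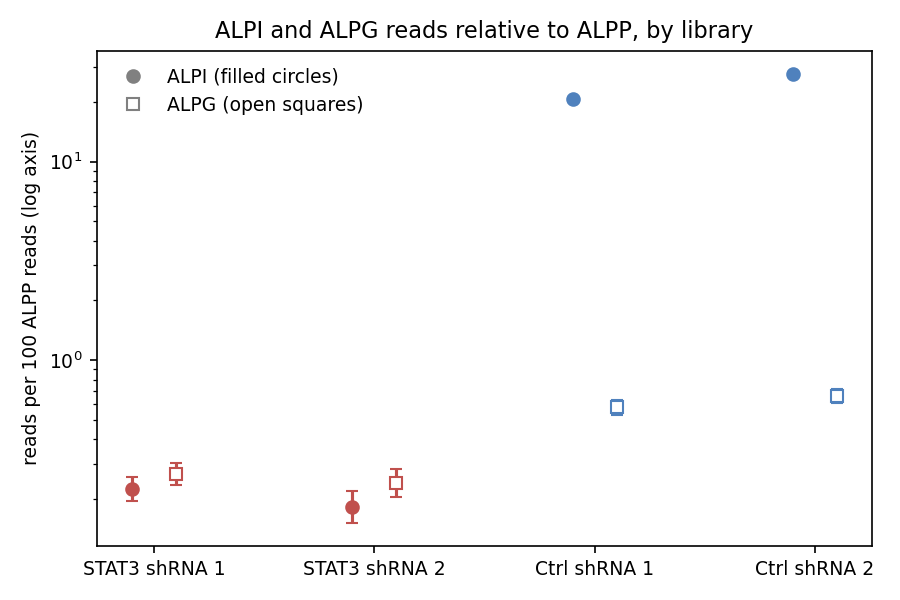
Reads of ALPI (filled circles) and ALPG (open squares) per 100 ALPP reads in each library, on a log axis, with exact 95% counting intervals. ALPI is under 0.3 in the STAT3 shRNA libraries and over 20 in the Ctrl shRNA libraries, and ALPG is between 0.2 and 0.7 throughout.

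Adding the reads of the 3 genes gives a value that does not depend on how the counted reads were split among them. Reads with several matches would be missing from the sum if they were left out of the counts, which is not known here. The sum was 3582 and 3512 CPM with STAT3 shRNA against 6135 and 6581 CPM in Ctrl shRNA, a log2 fold change of -0.84 ± 0.07 (SE) or 1.79-fold lower. It made up 0.369% and 0.365% of all reads with STAT3 shRNA against 0.600% and 0.625% in Ctrl shRNA. ALPP held 99.5% and 99.6% of the sum with STAT3 shRNA, against 82.5% and 78.1% in Ctrl shRNA, where ALPI held 17.0% and 21.4%. With the GC offset the log2 fold change of the sum was -0.59.

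Most tested genes around the cluster fell as well. Within 1 Mb of the span of ALPP, ALPG and ALPI, 16 other genes were tested, of which 11 fell, 0 rose and 5 did not pass at an adjusted p under 0.05 (edgeR's two-sided quasi-likelihood test, adjusted by Benjamini-Hochberg over 15199 genes). Of all tested genes 35.5% changed, 18.7% lower and 16.8% higher. The median log2 fold change of the 16 neighbours was -0.83, lower than the -0.53 of ALPP and far from the -7.39 of ALPI. The overall count of changed genes depends on the libraries, with 2527 and 2567 genes changed without STAT3 shRNA replicate 1 or 2 in place of 5396, while 10 to 12 of the neighbours fell whichever library was left out.

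PRSS56, a serine protease gene and the next tested gene beyond ALPI, fell the most of the neighbours. It had 0.788 and 0.435 CPM with STAT3 shRNA against 7.16 and 11.1 CPM in Ctrl shRNA, a log2 fold change of -3.84 ± 0.35 (adjusted p = 0.000118, edgeR). EIF4E2, a cap-binding repressor of translation, fell to 45.3 ± 1.75 CPM with STAT3 shRNA against 102.5 ± 4.64 CPM in Ctrl shRNA (SD, n = 2 each; log2 fold change -1.18, adjusted p = 4.38e-05, edgeR), and its partner GIGYF2 by 0.86 (adjusted p = 0.000238). The exonuclease gene DIS3L2, on the ALPP side, had a log2 fold change of -0.99 and the autophagy gene ATG16L1 one of -0.93. Those of COPS7B, a subunit of the COP9 signalosome, and DGKD, a diacylglycerol kinase, were -0.80 and -0.66. Nucleolin (NCL) had -0.62, PDE6D -0.60 and prothymosin alpha (PTMA) -0.59. TIGD1 fell by 0.86, on a span that overlaps EIF4E2 on the other strand, so that its reads and those of EIF4E2 may not be separable. The adjusted p-values of these last 8 genes in the edgeR test ran from 0.000223 to 0.00943. PDE6D and COPS7B also have spans that overlap on opposite strands, so that their reads may not be separable either. The 5 that did not pass had log2 fold changes of 0.21 (EFHD1), 0.05 (LINC00471), -0.25 (NGEF), -1.09 (SNORC) and -2.04 (AC068134.3, a pseudogene inside DIS3L2). Of these, NGEF and AC068134.3 did pass in at least 1 of the alternative analyses given further below. The calls of NCL and TIGD1 were lost with the deposited FPKM, and that of PDE6D without STAT3 shRNA replicate 2.

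**Figure D4:**
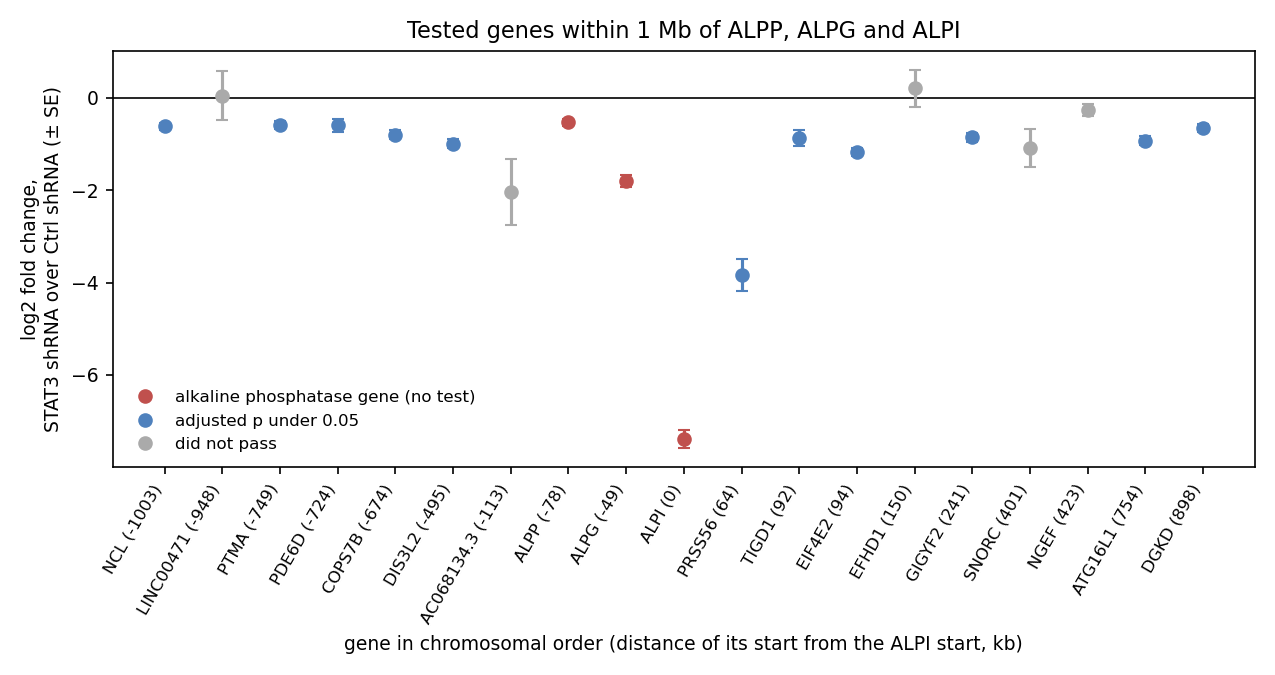
Log2 fold change of STAT3 shRNA over Ctrl shRNA (± SE) for tested genes within 1 Mb of ALPP, ALPG and ALPI, in chromosomal order, labelled with the distance of the gene's start from the ALPI start in kb. Most neighbours lie between -1.2 and -0.5, ALPP is at -0.53, PRSS56 at -3.84 and ALPI at -7.39.

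Outside the cluster, the pattern of ALPI over the 4 libraries was set against 11387 genes whose higher group mean reached 5 CPM, by Euclidean distance of centred log2(CPM + 0.5). The nearest was SLC12A3, the thiazide-sensitive cotransporter of the kidney, on chromosome 16, at a distance of 0.355. SLC12A3 had 2.10 and 1.36 CPM with STAT3 shRNA against 370.7 and 365.4 CPM in Ctrl shRNA. The other 4 were farther, at distances of 2.07 to 3.04. WFDC1 on chromosome 16 had 0.900 and 0.978 CPM with STAT3 shRNA against 38.1 and 44.9 CPM in Ctrl shRNA. FAM220A on chromosome 7 had no reads with STAT3 shRNA against 25.6 and 10.1 CPM in Ctrl shRNA, and the remaining 2 were loci without an Ensembl ID. With 4 libraries such likeness says little more than that these genes were high in Ctrl shRNA and low with STAT3 shRNA.

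Pathways in which alkaline phosphatases act were read from lists of genes. Of 32 genes of GPI anchor synthesis, attachment and release, 30 were tested, of which 4 rose, 2 fell and 24 did not pass, where 35.5% of all tested genes changed. Their median log2 fold change was -0.01, against 0.02 over all genes. DPM3, a subunit of dolichol-phosphate mannose synthase, had 21.4 and 21.7 CPM with STAT3 shRNA against 40.7 and 64.4 CPM in Ctrl shRNA (log2 fold change -1.29 ± 0.19, adjusted p = 0.00117, edgeR). GPLD1, a secreted phospholipase that cleaves GPI anchors, rose to 9.30 and 10.0 CPM with STAT3 shRNA against 5.25 and 5.12 CPM in Ctrl shRNA (0.89, adjusted p = 0.00451, edgeR), and PGAP1, which remodels the anchor after attachment, fell by 0.98. The other genes that rose were the anchor synthesis genes PIGX (0.33), PIGN (0.47) and PIGZ (0.94), named after their values were seen. PGAP2, the most abundant of the list, did not pass (-0.02, adjusted p = 0.865, edgeR). The calls of GPLD1 with FPKM and of PGAP1 without STAT3 shRNA replicate 1 were lost. Without STAT3 shRNA replicate 1, 1 gene of the list rose and 1 fell, without STAT3 shRNA replicate 2, 1 rose and 2 fell, and without Ctrl shRNA replicate 1, 6 rose and 5 fell.

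Of 27 genes of phosphate, pyrophosphate and mineralization, the setting in which ALPL acts, 13 were tested, of which 4 rose, 0 fell and 9 did not pass, with a median of 0.06, where 16.8% of all tested genes rose and 18.7% fell. PPA1, the cytosolic pyrophosphatase, had 310.6 and 308.0 CPM with STAT3 shRNA against 232.1 and 217.5 CPM in Ctrl shRNA (log2 fold change 0.46 ± 0.08, adjusted p = 0.00276, edgeR). NT5E, the ectonucleotidase CD73 that makes adenosine from AMP, rose by 1.36 and ABCC6, a transporter whose loss causes ectopic mineralization, by 1.48, both under 4 CPM. The other gene that rose was ENPP1 (0.65), which makes pyrophosphate from ATP, named after its value was seen. ANKH, the exporter of pyrophosphate and ATP and the most abundant of the list, did not pass (-0.15, adjusted p = 0.158, edgeR), but did with FPKM, with the GC offset and without Ctrl shRNA replicate 1. The call of NT5E was lost without STAT3 shRNA replicate 1 and with FPKM, and that of ABCC6 without either STAT3 shRNA library, with DESeq2 and with log2(FPKM + 0.1). The count of the list that rose was 1 without STAT3 shRNA replicate 1 and 2 without STAT3 shRNA replicate 2, and without Ctrl shRNA replicate 1 there were 2 that fell.

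Markers of the cell types in which these enzymes are best known were read beside them. Of 24 enterocyte brush border genes 1 passed the filter, the mucin MUC13, with 131 and 89 reads with STAT3 shRNA against 1 read in each Ctrl shRNA library (ratio 92.7, exact 95% counting interval 25.4 to 770.6). MUC13 was thus higher where ALPI was lower. The 16 genes of this list that could be read summed to 6.002 and 5.82 CPM with STAT3 shRNA against 0.530 and 0.523 CPM in Ctrl shRNA. Most of the sum with STAT3 shRNA was MUC13 alone, at 4.91 and 4.84 CPM. Villin (VIL1) had 3 and 4 reads with STAT3 shRNA against 0 in both Ctrl shRNA libraries. MYO1A went the other way, with 0 reads in both STAT3 shRNA libraries and 1 in each Ctrl shRNA library. Of 15 intestinal and liver transcription regulators, 11 were tested, of which 5 rose, 1 fell and 5 did not pass (median 0.13), beside 16.8% higher and 18.7% lower among all tested genes. HNF4A rose to 7.20 and 4.95 CPM with STAT3 shRNA against 1.27 and 1.78 CPM in Ctrl shRNA (log2 fold change 1.997 ± 0.30, adjusted p = 0.00131, edgeR), and GATA6 and KLF5 by 0.45 and 0.29. Named after their values were seen, HNF4G rose at very low counts, 14 and 9 reads with STAT3 shRNA against 1 and 0 in Ctrl shRNA, and the thyroid hormone receptor gene THRA was the one that fell (-0.38). Without either one of the STAT3 shRNA libraries 2 of the 5 rose, GATA6 and KLF5 being among those lost, and none fell. The call of GATA6 was also lost with DESeq2 and with FPKM, and that of THRA with upper-quartile scaling and with FPKM.

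Placental trophoblast genes had 6 tested of 26, of which 1 rose, 4 fell and 1 did not pass (median -0.53). For this list and the germ cell and hepatocyte lists the share over all tested genes was again 35.5% changed, 16.8% higher and 18.7% lower. Without STAT3 shRNA replicate 1 the gene that rose did not pass, nor without replicate 2 or with DESeq2. PAPPA, the pregnancy-associated metalloproteinase, had 0.188 and 0.217 CPM with STAT3 shRNA against 5.46 and 5.28 CPM in Ctrl shRNA (log2 fold change -4.70 ± 0.37, adjusted p = 5.69e-05, edgeR). The transcription factor GATA2 fell by 0.93, and keratin 7 (KRT7), an epithelial keratin not limited to trophoblast, to 725.7 and 702.3 CPM with STAT3 shRNA against 1066 and 1166 CPM in Ctrl shRNA. The other gene that fell was TFAP2A (-0.42) and the one that rose TFAP2C (1.40), related transcription factors named after their values were seen. With FPKM 3 genes of the list fell in place of 4, PAPPA, GATA2 and KRT7 among them. The hormone subunit genes that define the syncytiotrophoblast were at or near 0, with CGA at 0 reads with STAT3 shRNA and at 3 and 1 reads in Ctrl shRNA and CGB3 at 0 in all libraries. The summed level of the 16 genes that could be read was 884.6 and 848.3 CPM with STAT3 shRNA against 1282 and 1384 CPM in Ctrl shRNA, most of it KRT7. Like ALPP, this sum was lower in both STAT3 shRNA libraries without overlap, as were 34.3% of all tested genes. A link of these genes with the ALPP values was not tested. Of 16 germ cell genes 4 were tested, of which 2 rose and 0 fell. PRDM1 rose to 38.1 and 37.6 CPM with STAT3 shRNA against 15.7 and 15.3 CPM in Ctrl shRNA (1.29 ± 0.10, adjusted p = 6.46e-05, edgeR) and PRAME by 0.49, a call lost with FPKM, while DDX4 had 0 and 1 reads with STAT3 shRNA against 0 in both Ctrl shRNA libraries. Of the hepatocyte list 3 genes were tested, of which transferrin (TF) fell, to 0.900 and 0.435 CPM with STAT3 shRNA against 2.01 and 2.14 CPM in Ctrl shRNA, a call lost without STAT3 shRNA replicate 2 or Ctrl shRNA replicate 2, with DESeq2 and with FPKM, and VTN did not pass (-0.13, adjusted p = 0.505, edgeR).

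**Figure D5:**
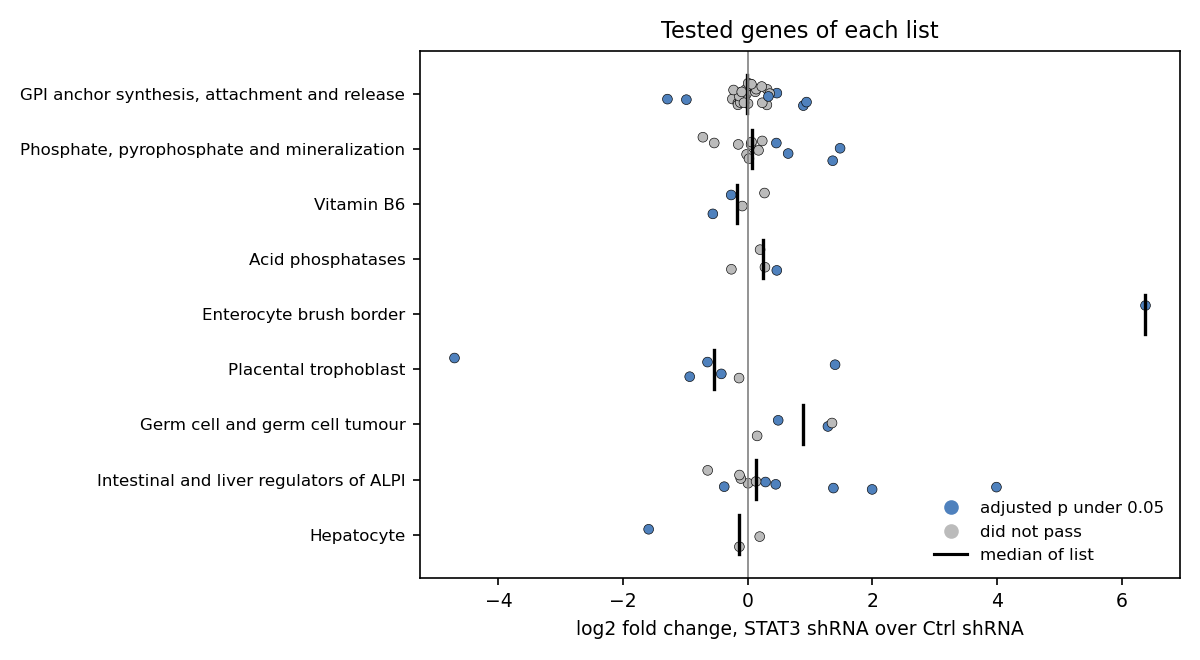
Log2 fold change of STAT3 shRNA over Ctrl shRNA for tested genes of each list, with blue points at an adjusted p under 0.05 (edgeR) and a black line at the list's median. The GPI anchor list centres on 0, MUC13 is the single tested enterocyte gene, at 6.38, and PAPPA is the lowest trophoblast gene, at -4.70.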

How the data were processed

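The authors deposited raw read counts and FPKM per gene for all 4 libraries, per the file headers; the aligner is not given in the sources used here, nor are the counting tool, build, strand and kit. The "Si" columns were taken as STAT3 shRNA, which the labels do not spell out. The test on the counts was that of edgeR 4.0.16, under R 4.3.3 (TMM, filterByExpr, quasi-likelihood F test, two-sided, group as the only term), adjusted over 15199 genes, with a threshold of 0.05. The filter kept 3 of the 4 members. FPKM were used for levels between genes and, with limma 3.58.1, as an alternative, as was DESeq2 1.42.0. Each SE of a log2 fold change is its absolute value over the square root of edgeR's F statistic. The 95% intervals of the members are built from these SE. They rest on the spread between libraries, which may be technical, and are not used as a test. Counting intervals are exact binomial (95%). Spans, transcripts and GC content are from GENCODE 29, promoters from RefSeq, and alignments from Biopython 1.88. The members and gene lists were chosen with earlier results of these data known. Genes named were the members, STAT3, the tested neighbours within 1 Mb, of each list the 3 changed genes with the smallest p and the most abundant one, and the 5 genes nearest to ALPI; markers at or near 0 (VIL1, ALB, CGA and the like) were added after their values were seen. The values of 1 gene that the rule names are not reported here. The edgeR script was checked on simulated counts. These had the same noise setting for all genes and both groups, unlike the data, so the check bears on the script only.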

Additional observations from a re-analysis of the deposited data

How the results depend on the processing

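ALPI, ALPP, ALPG and their sum stayed lower with STAT3 shRNA under all alternatives run (RLE and upper-quartile scaling, no filter and a filter of 5 CPM, the replicate block, 1 library left out, DESeq2, FPKM, and the GC offset added later). With all libraries kept, the log2 fold changes that moved by more than the spread between libraries were those of ALPI with log2(FPKM + 1) (-6.85), ALPP with upper-quartile scaling (-0.48) and the GC offset (-0.28), ALPG with log2(FPKM + 1) (-1.56) and the GC offset (-1.53), and the sum with the GC offset (-0.59). With 1 library left out ALPP ran from -0.57 to -0.52, ALPG from -1.94 to -1.69 and the sum from -0.92 to -0.80, and the lowest values of ALPP and of the sum, both without Ctrl shRNA replicate 1, had also moved by more than that spread. ALPL had a value with DESeq2 (3.14) and without a filter (2.88). FPKM of the sum were not fitted, and ALPL could not be fitted in the other alternatives, being under the filter. The offset of 1 FPKM shrinks low genes, MUC13 to 1.64 and PAPPA to -0.54. In place of 5396 changed genes there were 2535 and 2494 with FPKM at pseudocounts of 1 and 0.1, and 2527 to 7291 with 1 library left out. DESeq2 called 1630 genes higher in place of 2552. The cause of these shifts was not tested. With the replicate number as a block the value was -7.37 for ALPI, -0.53 for ALPP, -1.80 for ALPG and -0.84 for the sum, and 5447 genes changed. Same-numbered libraries did not deviate together (r = -0.03 across 15199 genes), so the numbers were not taken as pairs. Between 9 and 12 of the 16 neighbours fell in all alternatives and 0 rose. EFHD1, LINC00471, SNORC and AC068134.3 were not fitted with the filter of 5 CPM, being under it. Counting error limits ALPL, with 11 reads in all.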

Other observations

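Vitamin B6 enzymes, which handle a substrate of ALPL, and acid phosphatases were read beside the alkaline phosphatases. Of 4 vitamin B6 genes 2 fell and 0 rose, where 35.5% of all tested genes changed. PDXP, a pyridoxal phosphate phosphatase, had 58.9 and 53.9 CPM with STAT3 shRNA against 75.4 and 90.9 CPM in Ctrl shRNA (log2 fold change -0.56, adjusted p = 0.00477, edgeR), and pyridoxal kinase (PDXK) fell by 0.26, a call lost with upper-quartile scaling, with the GC offset and without either STAT3 shRNA library. The call of PDXP was lost without STAT3 shRNA replicate 2 and with FPKM. Of 9 acid phosphatase names 4 were tested, of which 1 rose and 0 fell. ACP6, a lysophosphatidic acid phosphatase of mitochondria, rose to 28.6 and 27.2 CPM with STAT3 shRNA against 18.7 and 21.7 CPM in Ctrl shRNA (0.47, adjusted p = 0.0139, edgeR), a call lost without either STAT3 shRNA library, with DESeq2 and with FPKM, and ACP1, the most abundant, did not pass (0.20, adjusted p = 0.0867, edgeR).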
